A study of Mus musculus with 8 samples.

Results

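The enzymes that bring pyruvate into mitochondria, turn it into acetyl-CoA and oxidise acetyl-CoA in the citric acid cycle, with the malate-aspartate shuttle, the branched-chain amino acid steps and the ketone body steps beside them, were followed as transcripts in tibialis anterior, a mouse shin muscle made up largely of fast-twitch fibres. The 37 genes were a list of names, drawn up with earlier results of these data known, out of 24341 genes listed, and all 37 passed the filter on low values among 11096 genes tested. They comprise 6 genes of pyruvate entry, 5 of the kinases and the phosphatase that switch pyruvate dehydrogenase, 13 of the cycle, 5 of the malate-aspartate shuttle, 5 of branched-chain amino acid oxidation and 3 of ketone body oxidation.

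Pyruvate crosses the inner mitochondrial membrane through a carrier and is decarboxylated by the pyruvate dehydrogenase complex, which kinases switch off by phosphorylation and phosphatases switch on again. The acetyl-CoA formed joins oxaloacetate to make citrate, and the cycle returns to oxaloacetate while it reduces the electron carriers that feed the respiratory chain. Muscle fibres also move the reducing power of glycolysis into mitochondria through the malate-aspartate shuttle, and burn ketone bodies and branched-chain amino acids as further sources of acetyl and succinyl units.

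RNA was sequenced from 8 chow-fed mice aged 12 weeks, labelled as males, with 4 animals per genotype. The 4 knockout mice (Carm1 skm-/-) carried floxed Carm1 and an HSAcre transgene (HSAcre Tg/0), which drives Cre recombinase from the human skeletal actin promoter in muscle fibres. The 4 wild-type mice (Carm1 skm+/+) carried floxed Carm1 without the transgene (HSAcre 0/0), so the loss of Carm1 and the presence of Cre cannot be told apart. Carm1 encodes a protein arginine methyltransferase that acts on histones and on transcription coactivators, and cells of the muscle other than fibres keep it. Values are FPKM, fragments per kilobase of transcript normalised to the mapped fragments of a library, divided by a scaling factor for each library, and are called scaled FPKM below. Differences are knockout minus wild type on log2(scaled FPKM + 1), which understates the change of low genes.

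Judged by the steps between low values, the libraries had 81.1% to 100% of the depth of wild type 1, and their absolute depth is unknown. Carm1 (chr9:21546894-21592623 in mm10, GENCODE M21) stood at 17.99, 12.7, 17.2 and 13.8 scaled FPKM in knockout muscles and at 27.1, 37.4, 27.3 and 30.1 scaled FPKM in wild-type muscles. Its log2 difference was -0.94 (SE 0.14, limma adjusted p = 0.0466, Benjamini-Hochberg over all genes tested), and the groups did not overlap. Leaving out any single library put its adjusted p above the threshold (limma adjusted p 0.0635 to 0.145). Which exons were removed was not analysed here. Knockout 2, knockout 4 and wild type 1 held 22.9, 20.5 and 19.6 FPKM of Xist, the RNA of the inactive X chromosome of females, whereas the other 5 libraries held at most 0.0662 FPKM. These 3 libraries therefore go against their label, and results are also given with the presence of Xist as a covariate. The same 3 libraries held the most Myh2, the type IIa myosin, with 1442 and 1438 scaled FPKM in knockouts 2 and 4 and 782 in wild type 1, against 119 to 173 in the other 5.

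The transcripts of the pathway were slightly lower in knockout muscle on balance, and no member passed the test. The median log2 difference over the 37 members was -0.11, against -0.0021 over all genes tested, and 27 of 37 members (73.0%) were lower in knockout, against 50.5% of all genes tested. None of the 37 reached an adjusted p under 0.05 in limma, where 0.36% of all genes tested did (0.162% lower and 0.198% higher). The smallest limma adjusted p of a member was 0.125, for Pdk3. That gene met the filter on low values only through the knockouts, where it was higher, so its p is no independent support. At an unadjusted p under 0.05 limma called 5 members, 3 lower and 2 higher, Pdk3 among the latter. This is 13.5% of members beside 13.1% of all genes tested (6.07% lower and 7.03% higher). In the plot of all differences the pyruvate entry and ketone groups and all of the shuttle but Got2 lie left of zero, and Bcat2 and Pdk3 stand to the right.

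The size of this shift depended on how the libraries were normalized and on which were kept. The median over members was -0.02 with quantile normalization and -0.02 without scaling, where the median of all genes was 0.07, and each of these left 19 members lower. The value without scaling therefore does not by itself show a smaller shift against all genes. Its 19 members lower are counted against no change, not against the median of all genes. Medians without scaling given below carry the same rise of all genes. It was -0.03 after trends on length, GC content and mean level were removed from each library and -0.00051 after the trend on mean level alone was removed. Leaving out knockout 1 gave -0.06 and leaving out wild type 1 gave -0.05, while leaving out knockouts 2 and 4 together gave -0.21. The median deviation of the members from their mean over the 8 libraries was -0.26, 0.09, -0.03 and 0.01 in knockouts 1 to 4 and 0.29, -0.01, 0.02 and -0.03 in wild types 1 to 4.

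**Figure D1:**
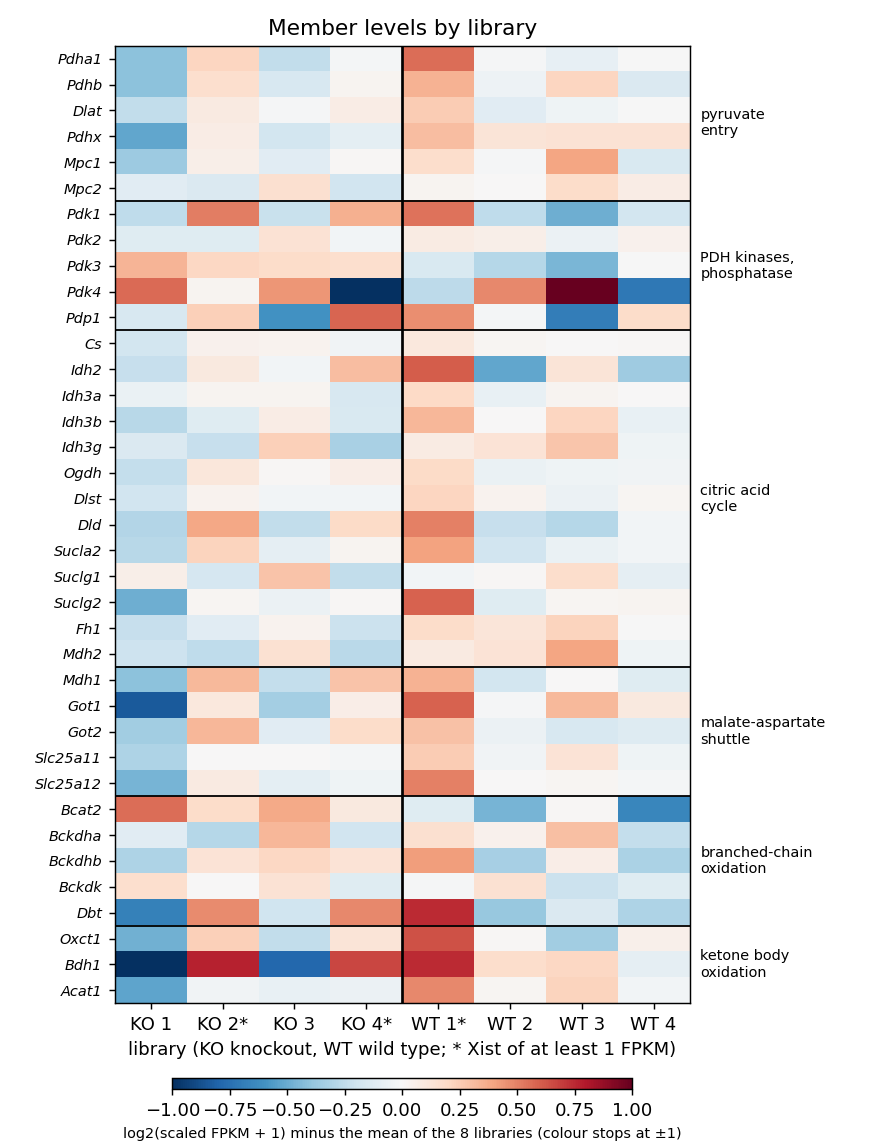
Level of each of the 37 members (rows, grouped by role) in each library (columns, knockouts left of wild types), as log2(scaled FPKM + 1) minus the mean of the 8 libraries. Blue is lower and red is higher, and an asterisk marks the 3 libraries with Xist of at least 1 FPKM. Knockout 1 is blue and wild type 1 is red in most rows, and Bcat2, Pdk3 and Pdk4 are among the rows that run the other way.

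With the presence of Xist as a covariate the shift was larger, and again no member passed. The median over members was then -0.15 and 32 of 37 members were lower, against -0.0076 and 51.8% for all genes tested. At an unadjusted p under 0.05 this fit called 12 members, 10 lower and 2 higher, beside 8.41% of all genes tested lower and 10.2% higher. At an adjusted p under 0.05 it called 0 members, where 2.01% of all genes tested were called (0.919% lower and 1.09% higher), and the smallest adjusted p of a member was 0.0539, for Got1. Of all genes tested, 11.4% had their 3 values in the libraries with Xist above the other 5, and 11 of 37 members did (Dlat, Pdk1, Pdp1, Ogdh, Dld, Sucla2, Mdh1, Got2, Dbt, Oxct1 and Bdh1). No member had all 3 below, where 9.37% of all genes tested did.

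**Figure D2:**
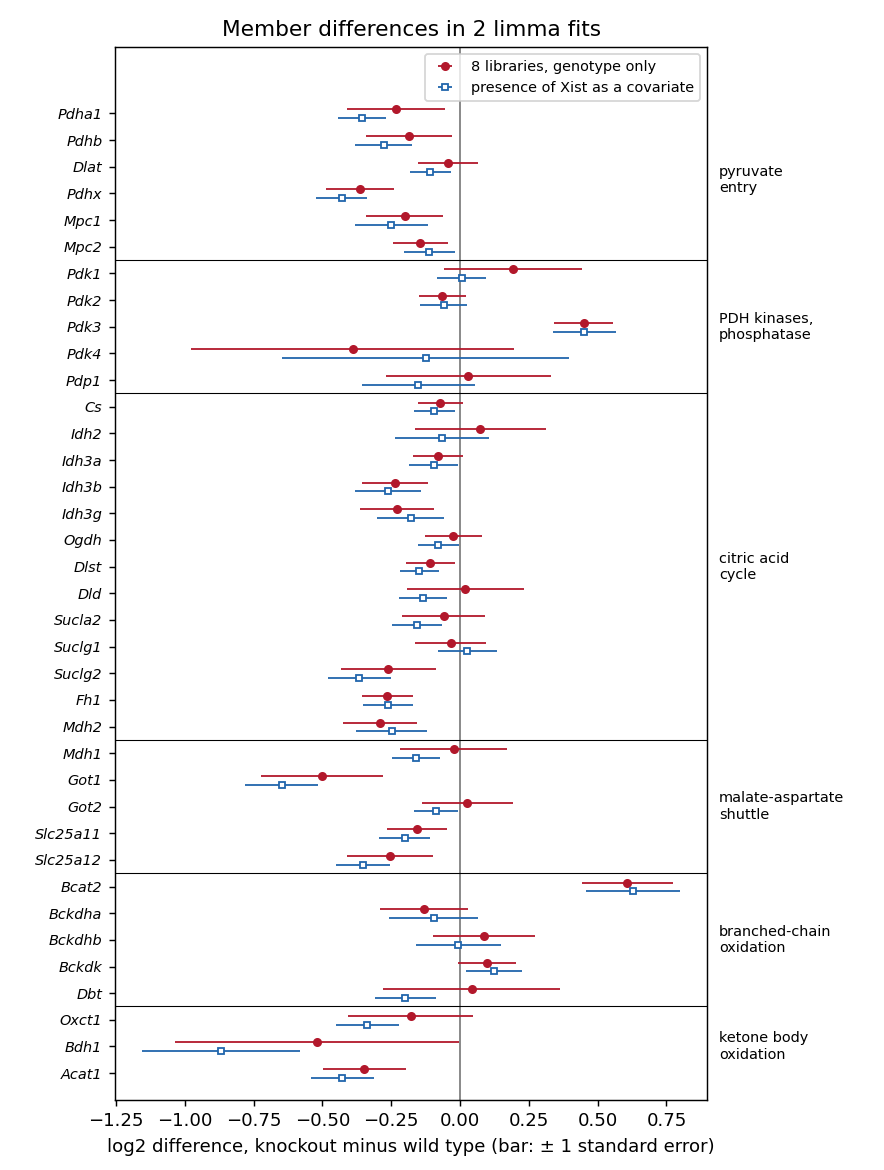
Log2 difference, knockout minus wild type, of each member with its standard error from limma, for genotype alone (filled circles, n = 4 per group) and with the presence of Xist as a covariate (open squares). For genotype alone, Bcat2 and Pdk3 lie furthest right, Got1 and Bdh1 furthest left, and the other 33 between -0.39 and 0.19.

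Of the marker lists, the fast-fibre genes summed to between 62521 and 107144 scaled FPKM in knockout libraries and between 98581 and 145401 in wild-type libraries. The 6 fast-fibre markers that could be tested all stood lower (median log2 difference -0.44), and 4 further markers of that list were not listed with an OK status in every library. The 8 slow-fibre markers tested, of 9 listed, summed to 186 to 602 scaled FPKM in knockouts and 169.5 to 691 in wild types. Their median was 0.47, and 1 of the 8 was lower. The remaining one, Myh7, did not pass the filter on low values, and its knockout mean was 79.2% of the wild-type one. Lower in knockout were also 8 of 8 fibro-adipogenic markers (sums of 381 to 705 in knockouts and 472 to 896 in wild types, median -0.25), 6 of 6 of smooth muscle and pericytes (220.2 to 265 and 233 to 358, median -0.36) and 6 of 6 endothelial ones (179.7 to 232 and 213 to 260.2, median -0.16). So were 5 of 5 Schwann cell markers (48.5 to 64.4 and 48.4 to 79.3, median -0.09) and both adipocyte markers tested of 6 listed, Cfd and Retn (3.70 to 18.1 and 7.89 to 19.8, median -0.62). For tendon, 1 of 4 markers was lower and the median was 0.37. Of the macrophage markers 5 of 6 could be tested and of the blood markers 3 of 4, with medians of 0.12 and 0.03 and none lower. Of 4 satellite cell markers only Cdh15 was tested, with a log2 difference of 0.28. The satellite cell markers Pax7, Calcr and Myf5 did not pass the filter on low values. Their knockout means were 84.9%, 69.4% and 71.5% of the wild-type ones. No marker list held a called gene, and the part of fibre type and of other cells in the members' differences was not tested. Fewer fibres of a type and less RNA per fibre cannot be told apart in whole muscle.

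Per length, the members differed widely in level. Over the 8 libraries Mdh2 was highest with a mean of 1373 scaled FPKM, followed by Mdh1 at 904, Mpc2 at 649 and Idh3b at 623. The ranges of Mpc2 and Idh3b overlapped, at 567 to 734 and 511 to 778 scaled FPKM. Within libraries Mpc2 lay above Idh3b in all but wild type 1, so their order did not hold in every library. Within the pyruvate dehydrogenase complex the E1 genes Pdha1 and Pdhb averaged 377 and 303 scaled FPKM, far above Dlat at 71.1 and Pdhx at 56.0. The lowest members were Suclg2 at 16.6, Pdk1 at 15.01, Bdh1 at 14.4, Dbt at 13.05 and Pdk3 at 1.27 scaled FPKM. In 11 of 37 members the highest library was under 1.5 times the lowest, whereas Pdk4 and Bdh1 spanned 8.81 and 6.88 times. Of the 37, 10 overlap a listed gene on the opposite strand, and the labels do not say whether the counting used strand. Where no partner is named below, the partner stood at no more than 1.73 scaled FPKM.

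In pyruvate entry, all 6 members were lower in knockout muscle, with a median log2 difference of -0.19, and the one with the clearest separation was Pdhx. Pdhx encodes the subunit that tethers dihydrolipoamide dehydrogenase to the complex. It stood at 38.3, 58.2, 48.5 and 51.6 scaled FPKM in knockouts and at 68.7, 60.6, 61.2 and 61.1 in wild types. Every knockout library lay below every wild-type library, although knockout 2 came close. The means were 49.2 ± 8.28 and 62.9 ± 3.88 scaled FPKM (SD, n = 4 each), a log2 difference of -0.36 (SE 0.12, limma adjusted p = 0.256). In all, 4 members did not overlap between the genotypes, beside 8.31% of all genes tested, and Pdhx and Acat1 were the 2 lower ones, beside 3.64%. With the Xist covariate the difference was -0.43 (limma adjusted p = 0.0586), and over all alternatives it lay between -0.53 and -0.25. The group's median was -0.10 without scaling and with quantile normalization and -0.08 with either set of trends removed, each with 5 of 6 members lower. It was -0.12 without knockout 1, -0.13 without wild type 1, -0.13 without wild type 3, -0.11 with array weights and -0.36 without knockouts 2 and 4 together.

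Pdha1, the X-linked E1 alpha subunit that carries the phosphorylation sites of the complex, stood at 279, 429, 312 and 364 scaled FPKM in knockouts and at 545, 367, 350.1 and 369 in wild types. The groups overlapped, since knockout 2 exceeded 3 wild types and knockout 4 exceeded wild type 3. Within the libraries with Xist and within those without it each knockout lay below each wild type. Wild type 1 was the only wild type with Xist. Its log2 difference was -0.23 (SE 0.18, limma adjusted p = 0.631), or -0.36 with the Xist covariate (limma adjusted p = 0.0870). The other E1 subunit gene, Pdhb, ranged from 225 to 337 scaled FPKM in knockouts and from 270.3 to 381 in wild types, a log2 difference of -0.19, and Dlat, the E2 acetyltransferase, had one of -0.05. Mpc1 and Mpc2 encode the 2 parts of the pyruvate carrier and had log2 differences of -0.20 and -0.14. Mpc2 stood at 597, 586, 722 and 567 scaled FPKM in knockouts and at 659.7, 648, 734 and 681 in wild types, so knockout 3 lay inside the wild-type range (limma adjusted p = 0.583). Pdha1 overlaps Map3k15 and Mpc1 overlaps 4930506C21Rik on the opposite strand, but both partners were low, at no more than 1.08 and 3.36 scaled FPKM.

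Of the kinases and the phosphatase that act on pyruvate dehydrogenase, 2 of 5 were lower and 1 of 5, Pdk3, was higher without overlap. Pdk3, the X-linked kinase that is scarce in muscle, stood at 1.83, 1.57, 1.54 and 1.51 scaled FPKM in knockouts and at 1.01, 0.831, 0.628 and 1.23 in wild types. Each knockout library lay above each wild-type library, and it reached 1 scaled FPKM in 6 of 8 libraries. The means were 1.61 ± 0.149 and 0.924 ± 0.256 scaled FPKM (SD, n = 4 each), a log2 difference of 0.45 (SE 0.11, limma adjusted p = 0.125). Over the alternatives it lay between 0.37 and 0.77, the highest with a pseudocount of 0.1 (limma adjusted p 0.0926 to 0.311). It was the lowest of all members, and it met the filter of 4 libraries through the 4 knockouts, since 2 wild types reached 1 scaled FPKM. Together with Bcat2 it makes 2 members higher without overlap, which 4.67% of all genes tested were.

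Pdk4, the kinase induced by fasting and fatty acids, varied most between animals, with its highest library 8.81 times its lowest. It stood at 183, 126, 167 and 34.1 scaled FPKM in knockouts and at 102, 172, 301 and 74.4 in wild types, which overlap throughout (log2 difference -0.39, SE 0.59, limma adjusted p = 0.828). Pdk1 had 11.9, 21.03, 12.2 and 18.8 scaled FPKM in knockouts and 21.5, 12.0, 10.03 and 12.6 in wild types, high in the 3 libraries with Xist in both genotypes (log2 difference 0.19, SE 0.25, limma adjusted p = 0.800). Pdk2, the highest of the kinases in every library but wild type 3, had a log2 difference of -0.06, and the phosphatase gene Pdp1 one of 0.03. Pdk2 made up 49.5% to 79.1% of the summed kinase FPKM in knockouts and 39.4% to 71.1% in wild types, and Pdk4 made up 13.1% to 46.9% and 24.4% to 58.6%. These shares overlapped between the genotypes and followed Pdk4.

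In the citric acid cycle 11 of 13 members were lower in knockout, with a median log2 difference of -0.08, but that direction turned with some normalizations. The median of the 13 was 0.03 with quantile normalization and 0.05 with the trend on mean level removed. It was 0.01 without scaling, where the median of all genes rose as well, so that value alone is no reversal against all genes. In each of these fits 6 members were lower. It was -0.05 without wild type 1, -0.14 without knockout 2 and -0.17 without knockouts 2 and 4 together. The clearest differences were in Fh1 and Mdh2, the last enzymes of the cycle. Fh1, fumarase, stood at 258, 279, 309.5 and 260.2 scaled FPKM in knockouts and at 344, 329.8, 352 and 302 in wild types. Only knockout 3 reached the wild-type range. The means were 277 ± 24.0 and 332 ± 21.8 scaled FPKM (SD, n = 4 each), a log2 difference of -0.26 (SE 0.09, limma adjusted p = 0.264). Mdh2, the mitochondrial malate dehydrogenase and the most abundant of the 37 per length, stood at 1175, 1136, 1511 and 1127 scaled FPKM in knockouts and at 1444, 1494, 1784 and 1316 in wild types. Knockout 3 was above 3 of the wild types, and the log2 difference was -0.29 (SE 0.13, limma adjusted p = 0.409).

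Cs, citrate synthase, the entry enzyme often taken as a gauge of mitochondrial content, was close in the genotypes. It stood at 379, 443, 441 and 419.9 scaled FPKM in knockouts and at 464, 437, 431 and 434 in wild types, a log2 difference of -0.07 (SE 0.08, limma adjusted p = 0.765). Its highest library was 1.22 times its lowest, a smaller ratio than in all other members but Pdk2. The 3 subunits of the NAD-linked isocitrate dehydrogenase, Idh3a, Idh3b and the X-linked Idh3g, had log2 differences of -0.08, -0.24 and -0.23, and the NADP-linked Idh2, which ranged from 156 to 227 scaled FPKM in knockouts and from 127 to 279 in wild types, one of 0.07. Idh3b overlaps Nop56 on the opposite strand, which stood between 14.7 and 19.5 scaled FPKM. The alpha-ketoglutarate dehydrogenase genes Ogdh, Dlst and Dld had -0.02, -0.11 and 0.02. Dld, which also serves the pyruvate and branched-chain complexes, had all 3 libraries with Xist above the other 5.

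Succinyl-CoA ligase has 1 alpha subunit, Suclg1, and either an ATP-forming beta subunit, Sucla2, or a GTP-forming one, Suclg2. Their log2 differences were -0.03 for Suclg1, -0.06 for Sucla2 and -0.26 for Suclg2. Suclg2 made up 3.81%, 3.93%, 4.61% and 4.46% of the summed FPKM of the 2 beta subunits in knockouts, against 5.20%, 4.71%, 4.76% and 4.69% in wild types. The shares did not overlap, and no test was made on them. How often such shares separate for other pairs of genes was not computed.

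Across the malate-aspartate shuttle 4 of 5 members were lower in knockout, with a median log2 difference of -0.15, and Got1 was furthest. The median was -0.07 without scaling, -0.05 with quantile normalization or the trend on mean level removed, -0.04 with all trends removed, -0.08 without knockout 1, -0.10 without wild type 1 and -0.09 with array weights, each with 3 of 5 lower. It was -0.34 without knockouts 2 and 4 together. Got1 is the cytosolic aspartate aminotransferase and Got2 the mitochondrial one. Got1 stood at 192, 371, 272 and 359.6 scaled FPKM in knockouts and at 518, 342, 432 and 368 in wild types. Knockouts 2 and 4 lay among the lower wild types and knockouts 1 and 3 below all of them. The means were 299 ± 83.8 and 415 ± 78.5 scaled FPKM (SD, n = 4 each), a log2 difference of -0.50 (SE 0.22, limma adjusted p = 0.385). With the Xist covariate it was -0.65 (limma adjusted p = 0.0539), and over all alternatives it lay between -0.84 and -0.31.

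Got2 was close in the genotypes, with a log2 difference of 0.03. As a share of the 2 aminotransferases, Got1 made up 57.9%, 62.3%, 62.3% and 64.0% in knockouts and 70.4%, 66.7%, 73.0% and 69.3% in wild types. The shares did not overlap, with means of 61.6% ± 2.61 and 69.8% ± 2.64 (SD, n = 4 each), and no test was made on them. Besides these and the succinyl-CoA ligase shares, those of Pdk1 to Pdk4, of Mpc1 and Mpc2 and of Mdh1 and Mdh2 were examined, and they overlapped. How often shares separate for other pairs of genes was not computed, so the separation has no reference rate. The calcium-regulated aspartate carrier gene Slc25a12 stood at 145, 214, 187 and 195 scaled FPKM in knockouts and at 284, 201, 203 and 198 in wild types, with knockout 2 above 3 wild types. Its log2 difference was -0.26 (SE 0.16, limma adjusted p = 0.527). The malate carrier gene Slc25a11 had -0.15 and the cytosolic malate dehydrogenase Mdh1 -0.02. Mdh1 ranged from 667 to 1115 scaled FPKM in knockouts and from 783 to 1129.8 in wild types. Slc25a11 overlaps Rnf167 on the opposite strand, which stood between 25.5 and 33.6 scaled FPKM, so some of its reads are uncertain.

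**Figure D3:**
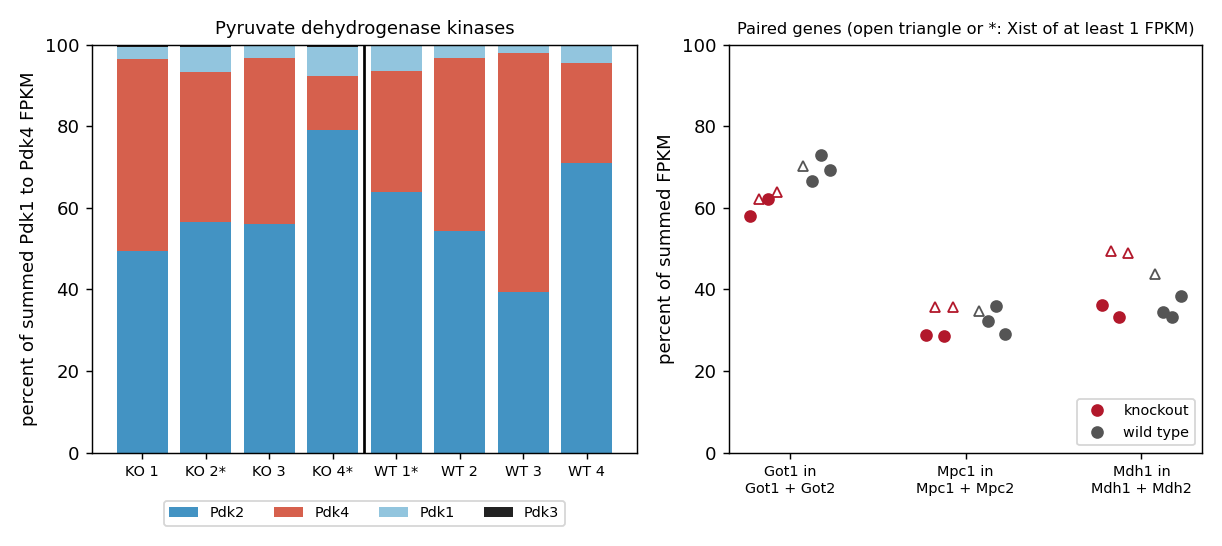
Left, share of each pyruvate dehydrogenase kinase in the summed Pdk1 to Pdk4 FPKM of each library. Right, share of Got1, Mpc1 and Mdh1 in the summed FPKM of each pair, with 1 point per library; Got1 lies between 57.9% and 64.0% in knockouts and between 66.7% and 73.0% in wild types, and the Mpc1 and Mdh1 shares overlap.

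The 250 bases upstream of Got1, which had the most CCAAT boxes of any member, and of Bcat2 and Pdhx, a higher and a lower member whose genotypes did not overlap, are shown from RefSeq (GRCm38.p6), 5′ to 3′ on the strand of the gene. Got1 lies at chr19:43524606-43524855 on the minus strand, Bcat2 at chr7:45569903-45570152 on the plus strand, upstream of the first of 2 listed starts, and Pdhx at chr2:103073514-103073763 on the minus strand. Capitals mark each match on either strand to CCAAT, the box bound by NF-Y, or AAGGTCA, the core of an extended nuclear receptor element.
Got1: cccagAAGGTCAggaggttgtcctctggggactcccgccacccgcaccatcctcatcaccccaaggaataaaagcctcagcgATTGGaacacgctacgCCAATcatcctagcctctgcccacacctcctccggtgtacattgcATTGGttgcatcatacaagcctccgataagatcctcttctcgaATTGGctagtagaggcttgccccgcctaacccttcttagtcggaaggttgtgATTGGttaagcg
Bcat2: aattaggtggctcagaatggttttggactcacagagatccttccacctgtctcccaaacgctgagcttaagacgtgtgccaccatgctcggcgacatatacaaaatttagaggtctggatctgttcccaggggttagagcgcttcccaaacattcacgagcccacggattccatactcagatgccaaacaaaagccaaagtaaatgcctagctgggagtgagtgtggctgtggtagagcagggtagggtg
Pdhx: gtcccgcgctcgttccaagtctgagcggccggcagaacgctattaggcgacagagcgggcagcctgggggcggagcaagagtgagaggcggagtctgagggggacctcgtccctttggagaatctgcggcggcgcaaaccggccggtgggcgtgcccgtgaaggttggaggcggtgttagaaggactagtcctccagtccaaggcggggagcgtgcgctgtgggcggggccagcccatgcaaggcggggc
Got1 holds 5 CCAAT matches, which 0.248% of 27025 genes reach, and the only AAGGTCA match of the members. Of the 33 members with a promoter in the table, 18 held CCAAT (54.5%, beside 37.5% of all genes), and 1 held AAGGTCA (3.03%, beside 4.70%). The longer estrogen-related receptor element TNAAGGTCA, which contains AAGGTCA, was in no member and in 1.30% of genes. The NRF1 site was in Sucla2 alone, beside 4.23% of genes, and CCGGAAG, the ETS core, in Idh3g and Mpc1, beside 7.83%. The MEF2 site was in Mpc2 alone, beside 3.70% of genes. These matches describe the letters in that window.

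Of the 5 branched-chain members, 1 was lower in knockout and Bcat2 alone did not overlap. The group's median log2 difference was 0.09, and over all settings it lay between -0.01 and 0.24, with 1 to 3 members lower. With the Xist covariate, without wild type 2 and without wild type 4, 3 of 5 were lower. Bcat2, the mitochondrial branched-chain aminotransferase, stood at 108, 83.1, 94.9 and 78.1 scaled FPKM in knockouts and at 67.1, 52.7, 73.7 and 46.1 in wild types. Each knockout lay above each wild type. The means were 91.0 ± 13.3 and 59.9 ± 12.7 scaled FPKM (SD, n = 4 each), so that the knockout mean was 152% of the wild-type one, and the log2 difference was 0.61 (SE 0.16, limma adjusted p = 0.172). With the Xist covariate it was 0.63 (limma adjusted p = 0.115), and over all alternatives it lay between 0.49 and 0.83. The dehydrogenase genes Bckdha, Bckdhb and Dbt had log2 differences of -0.13, 0.09 and 0.04. Bckdk, which phosphorylates and switches off that dehydrogenase, stood at 80.2, 71.1, 78.7 and 65.2 scaled FPKM in knockouts and at 70.5, 78.9, 61.2 and 65.4 in wild types, which overlap (log2 difference 0.10, SE 0.10, limma adjusted p = 0.749). Bcat2 overlaps 0610005C13Rik on the opposite strand, which stood at no more than 0.505 scaled FPKM.

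All 3 ketone body members were lower in knockout, with a median log2 difference of -0.35. That median was -0.05 without knockout 1, -0.11 with array weights and -0.24 without wild type 1, which left 2 of 3 lower. Acat1, the mitochondrial acetoacetyl-CoA thiolase, stood at 77.6, 109.6, 107 and 108 scaled FPKM in knockouts and at 158, 114, 131 and 110.3 in wild types. The groups did not overlap, but knockout 2 and wild type 4 nearly met. The log2 difference was -0.35 (SE 0.15, limma adjusted p = 0.376). Bdh1, the beta-hydroxybutyrate dehydrogenase, stood at 3.22, 22.2, 6.86 and 20.6 scaled FPKM in knockouts and at 21.8, 14.3, 14.7 and 11.7 in wild types. Knockouts 2 and 4, with Xist, stood near wild type 1, also with Xist, whereas knockouts 1 and 3 lay below the other wild types. Its log2 difference was -0.52 (SE 0.51, limma adjusted p = 0.729), or -0.03 among the libraries with Xist and -1.33 among those without, and the difference between these 2 was not tested. Oxct1, the transferase that activates acetoacetate, ranged from 110.5 to 183 scaled FPKM in knockouts and from 121 to 241 in wild types, with a log2 difference of -0.18.

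Within the libraries with Xist and within those without it, 9 members did not overlap between the genotypes, 7 lower and 2 higher. The 7 were Pdha1, Pdhb, Pdhx, Mdh1, Got1, Slc25a12 and Acat1, and the 2 were Pdk3 and Bcat2. Of all genes tested, 20% did not overlap by that measure, 8.89% lower and 11.1% higher. Wild type 1 was the only wild type with Xist, so among those libraries knockouts 2 and 4 were set against a single animal. For Pdha1, Pdhx and Slc25a12 that animal also stood apart as the high library of its genotype.

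**Figure D4:**
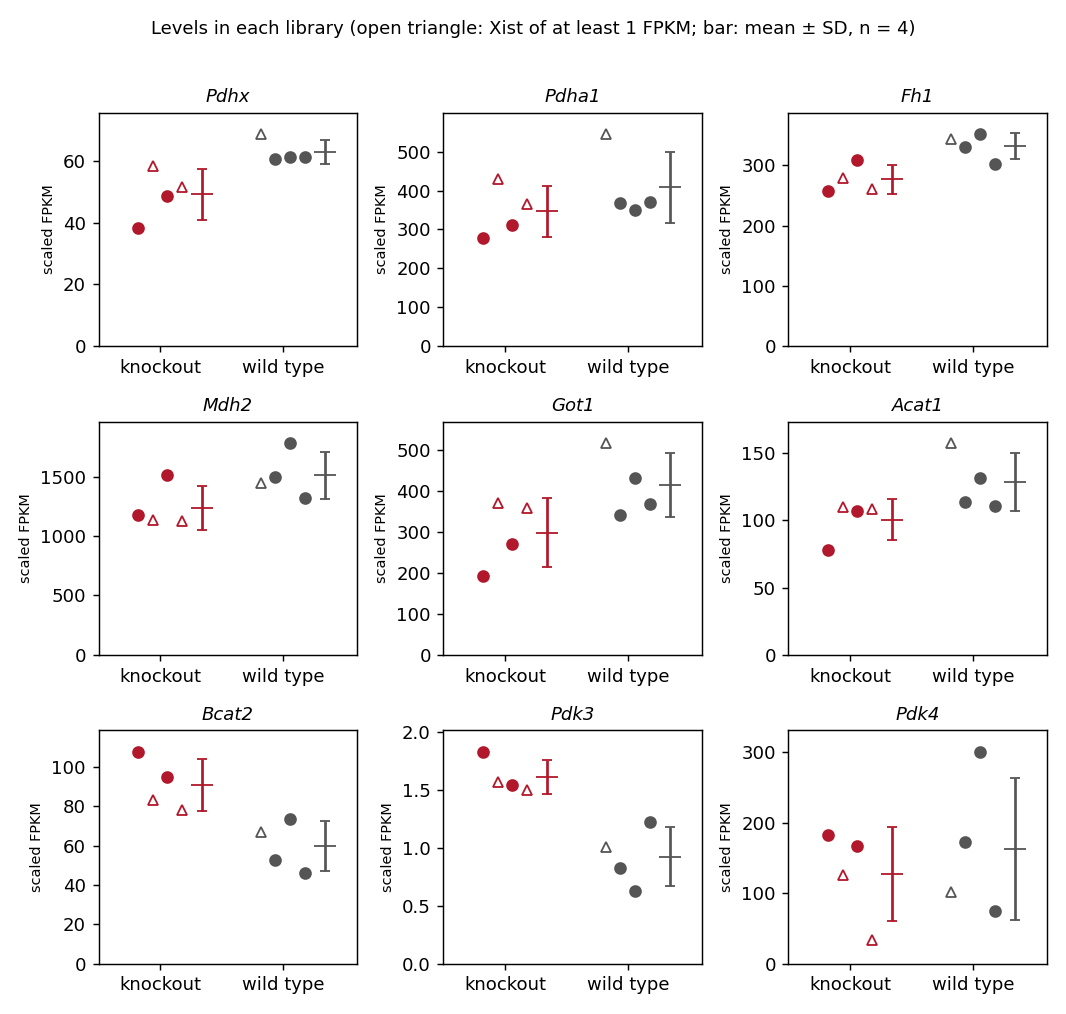
Scaled FPKM of 9 members in each library, knockout left of wild type, with the mean and SD of each group (n = 4). Triangles are the 3 libraries with Xist. The groups do not overlap in Pdhx, Acat1, Bcat2 and Pdk3 and overlap in the other 5.

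Of 62 further genes of these pathways, 55 could be tested and 0 were called by limma (smallest adjusted p 0.118), with 4 higher and 5 lower at an unadjusted p under 0.05, where 7.03% and 6.07% of all genes tested were. Their median log2 difference was -0.03 and 30 of 55 were lower. Ldha, the muscle lactate dehydrogenase subunit, had the smallest p: 1568, 1079, 1538 and 1300.5 scaled FPKM in knockouts, against 1943, 2146, 1929.9 and 2036 in wild types (log2 difference -0.57). The groups did not overlap. Gpt2, the mitochondrial alanine aminotransferase, had a log2 difference of -0.79 and its cytosolic relative Gpt one of 0.37 (limma adjusted p = 0.207 each). With the Xist covariate 1 of the 55 was called, beside 2.01% of all genes tested. Pcca, the alpha subunit of propionyl-CoA carboxylase, stood at 18.7, 27.0, 24.4 and 23.0 scaled FPKM in knockouts and at 36.1, 31.1, 31.3 and 31.9 in wild types. Its log2 difference was -0.48 without the covariate (limma adjusted p = 0.125) and -0.53 with it (limma adjusted p = 0.0383). Mccc1, a subunit of methylcrotonyl-CoA carboxylase, had a log2 difference of 0.46, Bdh2 -0.12, Lipt2 0.25, Slc25a10 0.17 and Slc25a3 -0.20, none called.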

How the data were processed

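Total RNA of tibialis anterior from 8 mice was sequenced. For each library the authors deposited a table of FPKM; the submitters' processing notes name STAR, Cufflinks and mm10, and versions and annotation are not given in the sources used here. These tables hold no read counts, so count models were not used and depth is known only as a ratio between libraries. Cufflinks estimates how overlapping genes share reads. Genes without an OK status in every library (23) were left out, and 27 names that had become dates were kept as listed.

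Each library was scaled by its median-of-ratios factor (0.904 to 1.07) and tested as log2(value + 1) with limma 3.58.1 in R 4.3.3 (eBayes with trend, Benjamini-Hochberg over 11096 genes, threshold 0.05); a gene needed 1 scaled FPKM or more in 4 or more libraries. The script was also run on simulated data with independent libraries and changes of 1 log2 unit up or down. That run does not tell how well differences as small as those of the members would be found. Carm1 also had a 2-sided exact permutation test (p = 0.02857, the smallest that 70 assignments give). The 4 animals per genotype are separate animals, so p-values measure the spread between animals. Values in every library are given for Carm1, for the 2 members of each role with the smallest p, and for Pdk4, Pdha1 and Cs; of the other pathway genes, called ones and the 2 per list with the smallest p are named, except for 1 result that is not reported here. Promoters come from RefSeq (GRCm38.p6). Other steps used scipy 1.17.1, pandas 2.3.3, numpy 2.4.6 and matplotlib 3.10.9 under Python 3.11.15. Members and lists were chosen with earlier results of these data known. Alternatives were no filter, a pseudocount of 0.1, a mean scaled FPKM of 5 or more, no scaling, quantile normalization, each library left out, a replicate block, Xist as a covariate, the libraries without Xist, knockouts 2 and 4 left out, robust eBayes, array weights and loess trends (span 0.5) removed; the mean-level trend alone and the overlap within Xist strata were added after the data were examined.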

Additional observations from a re-analysis of the deposited data

Results flagged for a closer look

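Each member was checked in the 4 libraries of each genotype, 74 sets in all. In 12 a single library stood further from the other 3 than the critical gap allows, where chance gives about 1 in 20 such sets. The sets share the same 8 libraries and are not independent. The rate over all genes tested was not computed, so the 12 cannot be read as an excess among the members. Wild type 1 was the high library in 7 of them: Pdha1 at 545, Pdhx at 68.7, Cs at 464, Ogdh at 187, Suclg2 at 24.9, Slc25a12 at 284 and Dbt at 21.3 scaled FPKM. Knockout 1 was the low library in 4: Suclg2 at 11.3, Slc25a11 at 219, Bckdhb at 21.3 and Acat1 at 77.6 scaled FPKM. Knockout 3 was the high library for Mdh2, at 1511 scaled FPKM.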

How the results depend on the processing

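No member was called at an adjusted p under 0.05 in any of the 21 alternatives, and 19 of 37 members kept their sign in all of them. Of 776 member values, 763 moved by less than the spread between replicates. Both filters on low values, robust eBayes and the replicate block cannot change a member's difference. The counts of kept signs and unmoved values therefore include comparisons that were fixed in advance. Over all genes, limma called 40 (22 higher, 18 lower), and 8 with no filter on low values, 15 at a mean scaled FPKM of 5 or more, 223 with Xist as a covariate, 3 in the libraries without Xist, 13 without knockouts 2 and 4 together and 103 with array weights. Without scaling 36 were higher and 13 lower. Leaving out 1 library gave between 2 (without wild type 4) and 27 (without knockout 3) calls, and each library but knockout 3 moved the count by over 1.5 times. The replicate block gave 0 calls in limma, with 1314 genes at an unadjusted p under 0.05, beside 1454 without it. The labels do not say that shared numbers pair the animals. Same-numbered deviations correlated between -0.43 and 0.35, and 1 of 4 knockouts correlated best with its own number. These correlations cannot decide on pairing, because they also followed the presence of Xist. Wild type 1 correlated at 0.48 and 0.37 with knockouts 2 and 4, and at -0.43 and -0.38 with knockouts 1 and 3.

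Carm1 kept its direction in every alternative run but missed the threshold with no filter (-0.94, adjusted p = 0.0791), with the replicate block (-0.94, adjusted p = 0.189), in the libraries without Xist (-0.80, adjusted p = 0.168), without knockouts 2 and 4 together (-0.75, adjusted p = 0.152) and in each fit that left out 1 library (-1.02 to -0.84, limma adjusted p 0.0635 to 0.145). The other pathway genes called went to 1 with Xist as a covariate, and members lower without overlap were 7 within the Xist strata, a looser measure that 8.89% of all genes met, and 2 over all libraries, where 3.64% did. The cause was not tested. FPKM without counts give no counting error for a single gene, so low members such as Pdk3 are the least certain.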
